A study of Mus musculus with 4 samples.

Results

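The SLC25 family of carriers was examined in sorted mouse erythroblasts, the nucleated precursors of red cells. Members were all genes with an array probe set naming a single symbol that begins Slc25a, together with Ucp1, Ucp2 and Ucp3, and each gene was read from its brightest probe set by the mean over the 4 arrays. The rule found 48 genes, of 19938 genes with a probe set of their own. Slc25a52 and Ucp2 had no such probe set and were not analysed here. Slc25a36 was picked out because of its difference between the genotypes, so its values and those it is set against are given as a description, with no test.

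RNA was measured on 4 Affymetrix whole-transcript arrays, 2 from wild type mice and 2 from Parp-2-/- mice lacking the DNA-damage-dependent enzyme PARP2. All samples were bone marrow cells sorted for Ter119 and CD71 on a C57BL/6 background, and age, sex, the deletion itself and whether animals were pooled are not given in the sources used here. The labels do not state whether the 2 arrays of a genotype hold RNA of different mice, and p-values therefore cover only array-to-array spread, part or all of which may be technical. Each title carries a replicate number, 1 or 2, in both genotypes, with no statement of what it marks, and a leading number of 1 or 2 for wild type and 3 or 4 for the knockout. If the leading number is an order of processing, it and the genotype cannot be told apart. Within each genotype the array with replicate number 2 has the lower leading number, so there such an order and the replicate number cannot be told apart either.

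SLC25 proteins sit mostly in the mitochondrial inner membrane, where they exchange nucleotides, phosphate, carboxylates, amino acids, cofactors and metals with the cytosol. Erythroblasts rely on them for heme: mitoferrin-1 (Slc25a37) brings in iron, Slc25a38 brings in the glycine from which heme synthesis starts, and Slc25a39, long linked to heme production, imports glutathione. Slc25a36 and its close relative Slc25a33 carry pyrimidine nucleotides, which mitochondria use to make their own DNA and RNA.

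Values are log2 expression values, so a difference of 1 is a doubling; differences are knockout minus wild type unless stated, with the SE of the limma fit and 2 arrays per group. The quality of the arrays bears on all of them. Over the annotated probe sets, array medians lay between 5.23 and 5.49, and knockout replicate 2 had an interquartile range of 1.98 against 2.62 to 2.94 on the others. Parp2 itself was lower on the knockout arrays (7.11 and 6.70) than on the wild type arrays (8.24 and 7.65), as the labels would have it. The 10 measured erythroblast markers, among them the transferrin receptor Tfrc, the heme enzyme Alas2 and the band 3 gene Slc4a1, read at least 9.06 on every array. Markers of other blood cells were also present. At an adjusted p under 0.05 limma called 0 of the markers of any list by genotype, and 0 of all 23410 annotated probe sets. All 17 neutrophil markers read lower in the knockout, with list means of 10.80 and 9.92 in wild type and 9.36 and 8.60 in the knockout. Of 10 B cell markers 9 were lower, with means of 6.94 and 7.48 against 5.90 and 6.01. Of 11 monocyte and macrophage markers 8 were lower, with means of 7.33 and 7.58 against 6.61 and 7.21. Of 11 basophil, mast cell and eosinophil markers 8 were lower (6.23 and 5.72 against 5.19 and 5.34), as were 8 of 11 T and NK cell markers (5.09 and 5.39 against 4.63 and 5.04), and 6 of 7 platelet markers were higher (5.43 and 6.40 against 5.89 and 6.74). The 10 measured late erythroblast markers had a median difference of +0.34 with the genotypes overlapping for all 10, and of +0.81 within number 1 and -0.07 within number 2. Their list means were 8.64 and 10.87 in wild type against 9.82 and 10.77 in the knockout, so that wild type replicate 1 was low and the other 3 arrays were closer together. No marker read 0, since log2 values of this kind have no true zero. The lowest reading of any neutrophil marker was 5.93. The part of these cells, or of erythroblast stage, in the carrier differences was not tested. In a bulk sample fewer cells of a type and less RNA per cell cannot be told apart.

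The upstream windows of 3 carriers are shown because the comparison sets Slc25a36 against the carriers of the heme pathway. Each holds the 250 bases before the RefSeq start (GRCm38.p6), 5′ to 3′ on the gene's strand, and 38 of the 48 members are in that table. Mitoferrin-1 (Slc25a37), also part of the comparison, is not in it, so the windows do not cover that gene. Capitals mark CACCC on either strand, which reads GGGTG on the other one and is the core of the site bound by the erythroid factor KLF1.
Slc25a36, chr9:97111042-97111291 (-): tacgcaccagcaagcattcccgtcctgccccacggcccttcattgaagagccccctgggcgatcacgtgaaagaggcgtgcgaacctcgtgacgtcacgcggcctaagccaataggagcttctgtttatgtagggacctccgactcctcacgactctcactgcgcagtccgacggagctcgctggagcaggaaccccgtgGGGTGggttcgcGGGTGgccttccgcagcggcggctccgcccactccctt
Slc25a38, chr9:120110132-120110381 (+): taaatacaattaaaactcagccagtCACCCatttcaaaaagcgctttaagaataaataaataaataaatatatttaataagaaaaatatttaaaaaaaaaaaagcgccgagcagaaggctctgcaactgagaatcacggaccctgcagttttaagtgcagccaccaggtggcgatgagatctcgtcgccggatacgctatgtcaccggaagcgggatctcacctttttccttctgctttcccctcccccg
Slc25a39, chr11:102407518-102407767 (-): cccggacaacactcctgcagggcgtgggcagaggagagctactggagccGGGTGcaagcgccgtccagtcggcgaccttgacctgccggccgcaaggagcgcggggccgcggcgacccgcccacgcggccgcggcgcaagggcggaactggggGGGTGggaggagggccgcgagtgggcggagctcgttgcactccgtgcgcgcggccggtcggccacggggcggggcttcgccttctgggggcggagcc
CACCC occurred 2 times in the Slc25a36 window, 1 time in that of Slc25a38 and 2 times in that of Slc25a39, and at least 1 match was found in 52.0% of all 32851 promoter windows of this length. The GATA motif, searched on both strands as AGATAA, as AGATAG with its other last base, and with a leading T as TGATAA or as TGATAG, was in 0 of the 3 windows and in 26.5% of all of them. The p53 half-site consensus, also searched on both strands, was in 0 of the 3 and in 7.13% of all. The G and C content of the windows was 64.4% for Slc25a36, 41.6% for Slc25a38 and 77.2% for Slc25a39. Letters in a window describe the sequence only, and no binding was measured.

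The first comparison asked how the carriers differed between Parp2 knockout and wild type. In wild type Slc25a36 read 6.43 (replicate 1) and 7.12 (replicate 2). The knockout values, in the same order, were 8.80 and 9.84. Both knockout arrays thus lay above both wild type arrays. The difference was +2.55 ± 0.49 (SE, n = 2 per genotype), or 5.85-fold. Within replicate number 1 it was +2.37 and within number 2 it was +2.73. Among all 19938 genes it ranked 4 in the direction of higher values, which is how it came to be chosen.

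A second probe set naming Slc25a36 gave the same direction. It read 6.30 and 6.78 in wild type and 7.36 and 9.82 in the knockout, a difference of +2.05 ± 0.77. Its 2 knockout arrays were farther apart from each other, and the difference was +1.06 within number 1 and +3.04 within number 2. In the order of probe set numbers the brighter probe set (10595856) lies between Spsb4 and Trim42, genes beside Slc25a36 in the RefSeq gene order. The other (10479979) lies between Celf2 and Gata3, and 0 of its 6 nearest named probe sets belong to genes beside Slc25a36. Whether it reads a copy of the gene elsewhere was not tested, so it is not counted as a separate measurement of Slc25a36.

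Slc25a33, the other pyrimidine nucleotide carrier, did not follow. Its values were 4.56 and 3.88 in wild type and 3.91 and 3.70 in the knockout, among the dim readings of these arrays. The genotypes overlapped, and the difference was -0.41 ± 0.40.

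**Figure D1:**
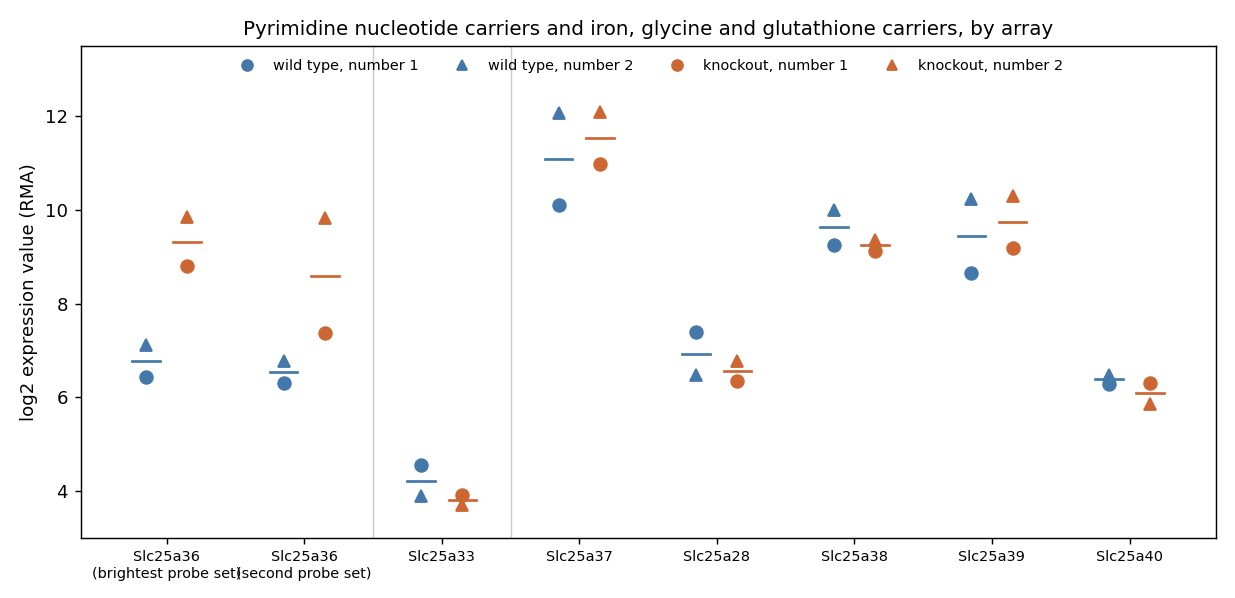
Log2 expression value (vertical axis) of the pyrimidine nucleotide, iron, glycine and glutathione carriers on each of the 4 arrays; circles are replicate number 1, triangles number 2, blue is wild type, orange is knockout, and bars are means of 2. For Slc25a36 the knockout arrays, at 8.80 and 9.84, lie above the wild type arrays at 6.43 and 7.12, while the genotypes overlap for the other genes shown.

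The iron and heme carriers differed less by genotype, and their genotypes overlapped. Mitoferrin-1 (Slc25a37) read 10.10 and 12.08 in wild type and 10.97 and 12.09 in the knockout, a difference of +0.44 ± 0.71. The glutathione importer Slc25a39 read 8.66 and 10.23 in wild type and 9.19 and 10.29 in the knockout, a difference of +0.30 ± 0.63. For these genes the arrays numbered 2 were high and those numbered 1 low in both genotypes, a wider split than that by genotype. The glycine importer Slc25a38 read 9.25 and 10.001 in wild type and 9.13 and 9.36 in the knockout, a difference of -0.38 ± 0.41. Mitoferrin-2 (Slc25a28), the widely expressed relative of mitoferrin-1, read 7.38 and 6.48 against 6.34 and 6.77, a difference of -0.37 ± 0.44. Slc25a40, the relative of Slc25a39, read 6.29 and 6.48 against 6.30 and 5.86, a difference of -0.30 ± 0.37. Its second probe set differed by -0.30 as well. However, 0 of the 6 nearest named probe sets of this one belong to genes beside Slc25a40, so it is not counted as a separate measurement.

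Set side by side, the mean difference of Slc25a37, Slc25a38 and Slc25a39 was +0.12, and that of Slc25a36 exceeded it by 2.43 on the log2 scale, or 5.39-fold. The excess was 1.94 within number 1 and 2.92 within number 2. The carriers' own mean difference was +0.43 within number 1 and -0.19 within number 2. Leaving out 1 array at a time gave an excess between 2.06 and 2.80, values that include the arrays on which Slc25a36 was chosen. The sign of the carriers themselves was less steady: without wild type replicate 1 the differences were -0.54 for Slc25a37 and -0.49 for Slc25a39, and without knockout replicate 2 they were -0.11 and -0.25.

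Over the whole family, 28 of 48 genes read higher in the knockout and 20 lower, with a median difference of +0.06. Over all 23410 annotated probe sets the median was +0.06 too. When arrays were centred on their medians the split became 23 higher and 25 lower, with a median of -0.01. Limma called 0 of the 48 genes at an adjusted p under 0.05 (0% of all probe sets called). At an unadjusted p under 0.05 the fit held 486 probe sets, 2.08% of all, and 0 of the 47 members other than Slc25a36. Slc25a36 had been chosen for its genotype difference and is left out of that count. Without knockout replicate 2 the family's median was -0.02.

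Both knockout arrays lay above both wild type arrays for 6 members (12.5%), where 15.6% of all probe sets did so, and below them for 1 member (2.08%), where 9.42% did. With a difference of at least 0.58, that is 1.5-fold, Slc25a36 was the 1 member higher (2.52% of all probe sets), and 0 members were lower (4.89% of all). The other 5 members without overlap had small differences. Slc25a44, a carrier of branched-chain amino acids, read 7.35 and 7.77 in wild type and 8.11 and 7.83 in the knockout, a difference of +0.41 ± 0.37. Slc25a23, which exchanges ATP-Mg for phosphate, differed by +0.51 ± 0.37, the basic amino acid carrier Slc25a29 by +0.35 ± 0.35, Ucp3 of the uncoupling proteins by +0.37 ± 0.36 and Slc25a14 by +0.23 ± 0.35. Each of these 5 differences was under 1.5 times its SE, and the last 4 genes named were dim. The 1 lower member was Slc25a25, a relative of Slc25a23, at -0.20 ± 0.35.

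Dim members read higher in the knockout more often than bright ones. Of the 19 members whose mean lay below 5.36, the median of all probe sets, 15 read higher in the knockout, with a median of +0.23. Of the 29 brighter members 13 did, with a median of -0.11. All probe sets split the same way, with medians of +0.16 for the dimmer and -0.11 for the brighter ones. Within number 2 the dimmer members had a median of +0.32 and within number 1 of +0.02, and knockout replicate 2, with the narrowest spread of values, enters the former. After repeated quantile normalisation the medians were +0.10 for the dimmer and +0.02 for the brighter members. The part of the array's spread in these values was not tested further.

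**Figure D2:**
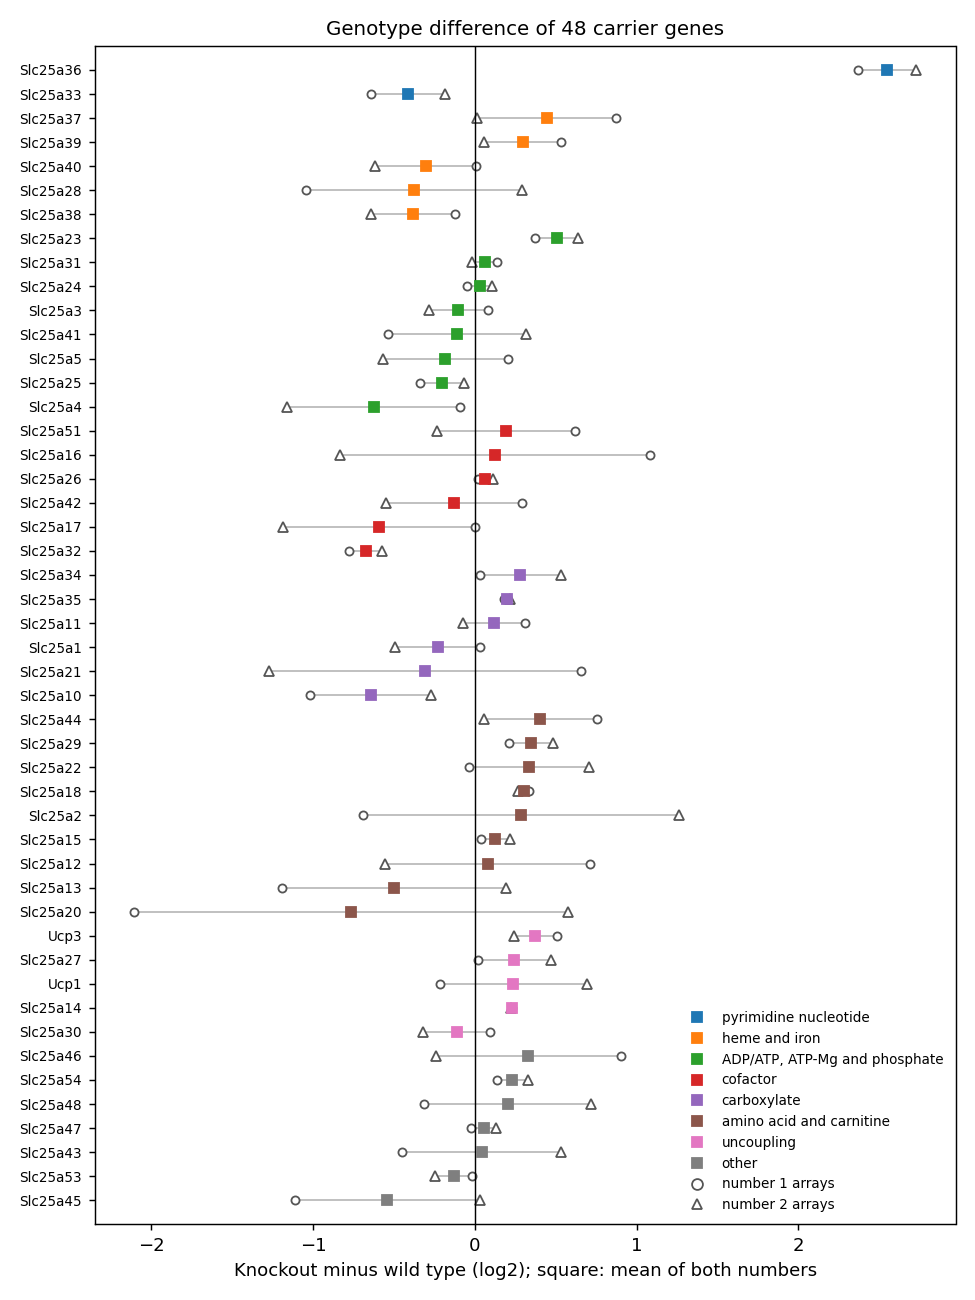
Knockout minus wild type difference (horizontal axis, log2) of the 48 carrier genes, grouped by what they carry; squares are the mean over both replicate numbers, and open circles and triangles are the differences within number 1 and within number 2. Slc25a36 at +2.55 stands to the right, and the other 47 genes lie between -0.76 and +0.51.

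By role, the nucleotide and phosphate carriers had 3 of 8 genes higher, with a median of -0.11. The ADP/ATP exchangers that export mitochondrial ATP were among the lower ones: Slc25a4 differed by -0.63 ± 0.87 and Slc25a5 by -0.18 ± 0.51, while the testis form Slc25a31 differed by +0.06 ± 0.37. Slc25a5 has 3 probe sets, which differed by -0.18, -0.23 and -0.38; the brightest lies among other genes in the probe set order, and the second is the one beside the gene's own neighbours. The phosphate carrier Slc25a3 differed by -0.10 ± 0.53. None of these genotype differences reached its SE, and the genotypes overlapped for all 4.

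The cofactor carriers had 3 of 6 genes higher and a median of -0.03. The folate carrier Slc25a32 differed by -0.67 ± 0.74, the peroxisomal carrier Slc25a17 by -0.59 ± 0.82 and the NAD carrier Slc25a51 by +0.19 ± 0.56. The carboxylate carriers had 3 of 6 higher and a median of -0.06, with the dicarboxylate carrier Slc25a10 at -0.64 ± 0.73 and the citrate carrier Slc25a1 at -0.23 ± 0.69. None of these 5 differences reached its SE.

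Of 9 amino acid and carnitine carriers 7 read higher, with a median of +0.29, and 5 of the 9 were dim. The largest negative difference of the family was that of the carnitine and acylcarnitine carrier Slc25a20, at -0.76 ± 0.73. It read 7.21 and 4.86 in wild type and 5.10 and 5.43 in the knockout, so that 1 wild type array was high and the other lay below both knockout arrays. Of 5 uncoupling proteins and their relatives 4 read higher, with a median of +0.24, and 4 were dim, among them the brown fat protein Ucp1, which read between 3.95 and 4.64 on the 4 arrays. The remaining 7 members, most without a well-known cargo, had 5 higher and a median of +0.06.

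The replicate number gave a comparison that the choice of genes had not used. The numbers cross the genotypes evenly, so arrays numbered 2 were compared with those numbered 1, each pair holding 1 array of each genotype. Limma called 4 of the 48 carriers at an adjusted p under 0.05 (8.33%), where 3.09% of all probe sets were called, and all 4 were lower on the arrays numbered 2, as were 2.15% of all probe sets, while 0 were higher, where 0.94% of all were. At an unadjusted p under 0.05 there were 15 of 48 members, where 17.9% of all probe sets passed. All 4 were among the brighter members, as were 495 of the 504 probe sets called lower. Over all probe sets the median by number was +0.20 for the dimmer and -0.24 for the brighter ones. For the members it was +0.27 and -0.23. Knockout replicate 2, with the narrowest spread of values, is 1 of the arrays numbered 2, and its part in these calls was not tested. The 4 are listed here with number 2 minus number 1.

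Slc25a4, the ADP/ATP exchanger of muscle and other differentiated tissue, read 7.85 and 7.76 on the arrays numbered 1 (wild type, then knockout) and 6.37 and 5.21 on those numbered 2. It fell by 2.01 ± 0.41 (SE, n = 2 per number), or 4.04-fold (limma adjusted p = 0.0345). Slc25a17 read 8.34 and 8.34 against 7.10 and 5.92, and fell by 1.83 ± 0.41 (limma adjusted p = 0.0444). Slc25a32 read 7.08 and 6.31 against 5.28 and 4.71, and fell by 1.70 ± 0.38 (limma adjusted p = 0.0439). Slc25a1, which exports citrate, read 7.62 and 7.66 against 6.37 and 5.88, and fell by 1.52 ± 0.33 (limma adjusted p = 0.0409). For each of the 4 both arrays numbered 2 lay below both numbered 1.

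These calls depended on the arrays and the scaling. Limma called 0 members when either array numbered 2 was dropped, 3 when wild type replicate 1 was dropped and 7 when knockout replicate 1 was. With arrays centred on their medians or quantile normalised again it also called 0. Over all probe sets the count was 724, and 0 in each of those 4 settings that gave 0 members, which applies to the marker and partner genes called below as well. The sign for Slc25a4 was the same, at -2.20 after centring and -1.90 after quantile normalisation.

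Of the 5 iron and heme carriers 3 read higher and 2 lower on the arrays numbered 2, and limma called 0 of them. Slc25a37 was higher on the arrays numbered 2 by 1.55 ± 0.37 (limma adjusted p = 0.0527) and Slc25a39 by 1.34 ± 0.33 (limma adjusted p = 0.0609), neither past the test. With trended, robust moderation limma called both, but that setting called 2190 probe sets over all, against 724 in the main fit. Slc25a37 was also called when a gene's probe sets were averaged. Neither was called after centring, after quantile normalisation, over all rows, among brighter probe sets or with array weights. Slc25a38 was higher by 0.49 ± 0.34 (limma adjusted p = 0.525). Slc25a28 differed by -0.24 ± 0.39 and Slc25a40 by -0.12 ± 0.34, and for both the groups overlapped. The NAD carrier Slc25a51, of another role and picked after its values were seen, was higher by 1.06 ± 0.34 (limma adjusted p = 0.127) and was called with trended, robust moderation as well. For Slc25a37, Slc25a39, Slc25a51 and Slc25a38 both arrays numbered 2 lay above both numbered 1, and the differences stayed above 0 after centring (1.36, 1.15, 0.88 and 0.31, in that order) and after quantile normalisation (1.85, 1.67, 1.40 and 0.84). Slc25a36 was higher on the array numbered 2 of each genotype, by 0.69 in wild type and 1.05 in the knockout, and its 2-minus-1 difference was 0.87 ± 0.87. Over the family, groups did not overlap for 14 members higher (29.2%, where 26.2% of all probe sets were) and 12 lower (25%, where 22.2% were) on the arrays numbered 2, shares close to those of all probe sets.

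Markers of erythroblast stage differed with the replicate number at the same time. All 10 measured late erythroblast markers were higher on the arrays numbered 2 in both genotypes, with a median of +1.27. Among them the ubiquitin ligase gene Trim58 rose by 2.84 and Ube2o by 1.92 (limma adjusted p = 0.0387 and 0.0311). Of the 17 neutrophil markers 16 read lower on the arrays numbered 2, with a median of -0.74. Of the 11 monocyte and macrophage markers 6 read higher and 5 lower, with a median of +0.22. Limma called 2 of them, Vcam1 (+2.20) and Mrc1 (+2.00), both higher (limma adjusted p = 0.0229 and 0.0307). Of 10 erythroblast markers 8 read higher, and Epb42 was called (+1.75, limma adjusted p = 0.0477). All 7 platelet markers read higher, and Ppbp was called (+2.12, limma adjusted p = 0.0493). Limma called 0 B cell markers (7 of 10 higher), 0 T and NK cell markers (9 of 11) and 0 basophil, mast cell and eosinophil markers (5 of 11). Over all probe sets 3.09% were called, 0.94% being higher. The part of stage and of other cells in the carriers' differences by number was not tested.

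**Figure D3:**
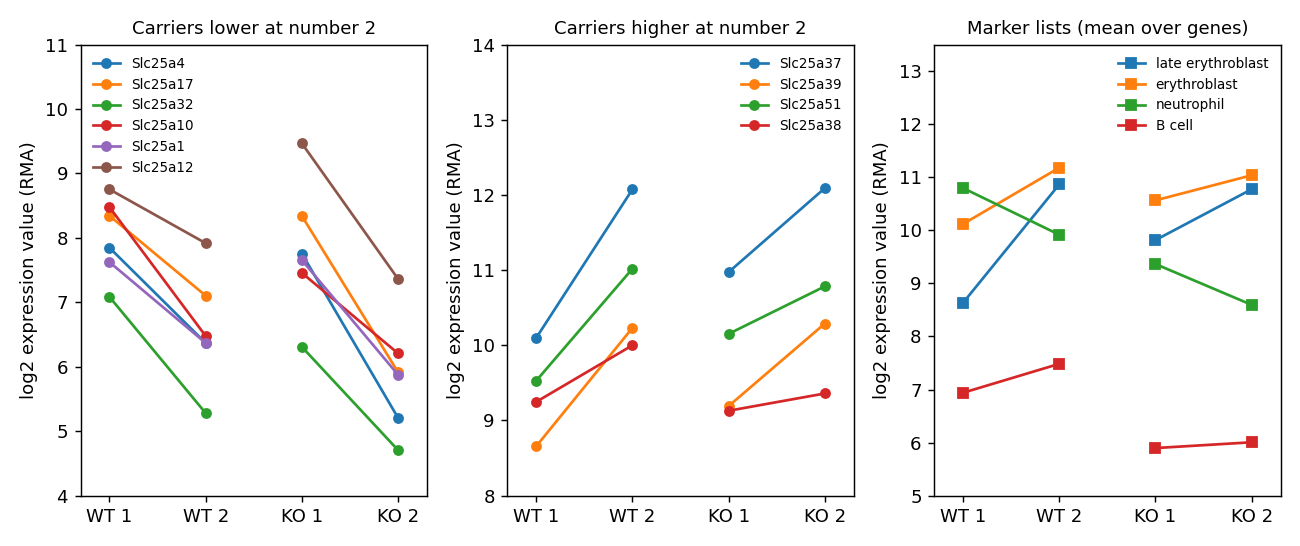
Log2 expression value (vertical axes) on each array, with lines joining replicate numbers 1 and 2 within a genotype: 6 carriers lower at number 2 (left), 4 carriers higher at number 2 (middle) and the mean over genes of 4 marker lists (right). Slc25a4 goes from 7.85 to 6.37 in wild type and from 7.76 to 5.21 in the knockout, while Slc25a37 goes from 10.10 to 12.08 and from 10.97 to 12.09.

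**Figure D4:**
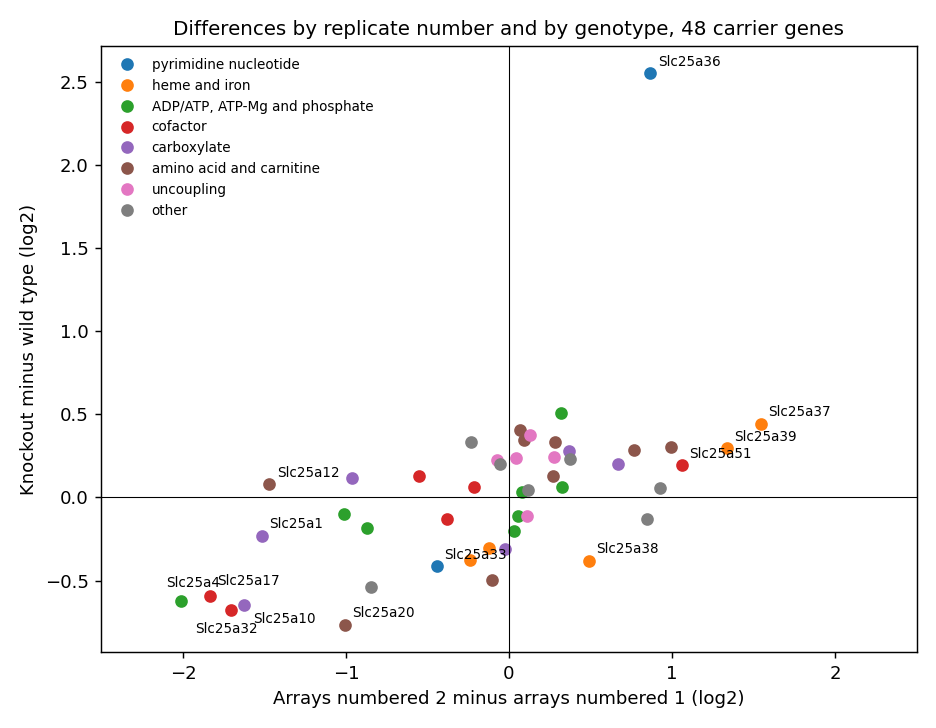
Difference of arrays numbered 2 minus those numbered 1 (horizontal axis, log2) against knockout minus wild type (vertical axis, log2) for the 48 carrier genes, coloured by what they carry. Slc25a36 is high on the vertical axis (+2.55), and Slc25a37 (+1.55) and Slc25a4 (-2.01) lie at the ends of the horizontal axis.

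Genes that work with these carriers were read from lists. The 17 measured genes of mitochondrial nucleotide supply and DNA upkeep, the pathways that take up pyrimidine nucleotides once inside, had 6 higher and 11 lower in the knockout, with a median of -0.11, and limma called 0 of them by genotype. The members of lowest p were Tfb2m, a mitochondrial transcription factor (-1.03 ± 0.52), Rnaseh1, a nuclease for RNA paired with DNA (-0.73 ± 0.49), and Polg, the mitochondrial DNA polymerase (+0.53 ± 0.38). Tfb2m read 7.12 and 5.71 in wild type and 5.49 and 5.29 in the knockout, without overlap but with 1 wild type array far above the rest. By replicate number 3 of the 17 were called (3.09% of all probe sets were), all lower on the arrays numbered 2 (2.15% of all): Tfam, which packages mitochondrial DNA (-2.33, limma adjusted p = 0.0229), and the succinate-CoA ligase subunits Suclg1 (-1.98, limma adjusted p = 0.0250) and Suclg2 (-2.20, limma adjusted p = 0.0293).

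The 15 measured genes of mitochondrial heme and iron-sulphur synthesis had 7 higher and 8 lower in the knockout, with a median of -0.0032, and limma called 0 by genotype. Lyrm4, a partner of the cysteine desulphurase (-0.51 ± 0.51), Alas2, the first enzyme of erythroid heme synthesis (+0.55 ± 0.69), and mitochondrial ferritin Ftmt (+0.27 ± 0.39) had the lowest p. By replicate number 7 of the 15 read higher and 8 lower on the arrays numbered 2. Limma called 1 higher (0.94% of all probe sets were) and 1 lower (2.15% of all). Ppox, a late heme enzyme, rose by 1.49 and Hspa9, the mitochondrial HSP70, fell by 1.69 (limma adjusted p = 0.0435 and 0.0387). Abcb10, the transporter that stabilises mitoferrin-1, was higher at number 2 by 0.89 and was not called (limma adjusted p = 0.161).

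Mtch1 and Mtch2, outer membrane proteins with the carrier fold under other names, differed by -0.30 ± 0.41 and -0.23 ± 0.59 by genotype. The outer membrane channels through which carrier substrates pass differed by -0.63 ± 0.82 for Vdac2, -0.20 ± 0.41 for Vdac3 and -0.20 ± 0.69 for Vdac1. Limma called 0 of these 5 by genotype. By replicate number Vdac1 fell by 1.54 and Vdac2 by 1.87 on the arrays numbered 2 (limma adjusted p = 0.0384 and 0.0392). Over all probe sets 2.15% were called lower there. Of those 504 probe sets 495 were among the brighter ones, as Vdac1 and Vdac2 are.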

How the data were processed

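The authors deposited log2 values for 35511 probe sets on 4 arrays. The tools named, per the submitters' processing notes and without their roles, are RMA, limma and R 3.0.2. RMA corrects background, quantile-normalises and summarises, and compresses dim and very bright values. Each column was tied to its sample by its identifier. Symbols came from the platform annotation and RefSeq gene IDs (GRCm38.p6). Limma 3.58.1 (lmFit, eBayes; R 4.3.3) was fitted to the 23410 annotated probe sets, by genotype and, separately, by replicate number, with Benjamini-Hochberg adjustment. With 2 arrays a side the smallest p an exact permutation test allows is 0.333, and no such test is given. The number of arrays limits the precision. The fit was first tested on simulated data. Values on every array are given for Slc25a36, Slc25a33, the iron and heme carriers, and members without overlap and with a difference of at least 0.58, or past the test by number. Of each partner list the 3 genes of lowest p by genotype are named with their differences. Other values were chosen after they were seen. The genes, lists and tests were chosen with earlier results of these data known. Alternatives were a replicate block, leaving out each array, centring, quantile normalisation, brighter probe sets alone, other moderation, array weights, all rows, a looser threshold, and other probe sets of a gene, of which the probe set among the gene's neighbours was chosen after seeing the data.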

Additional observations from a re-analysis of the deposited data

Results flagged for a closer look

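For 3 carriers the knockout minus wild type difference had opposite signs in the replicate numbers, with at least 0.58 on the log2 scale in each. Slc25a16 differed by +1.08 within number 1 and -0.83 within number 2. Slc25a21, the oxodicarboxylate carrier, differed by +0.66 within number 1 and -1.27 within number 2. Slc25a2, an ornithine carrier, differed by -0.69 within number 1 and +1.27 within number 2. Each value sets 1 array against 1, and the change of sign was not tested.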

How the results depend on the processing

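By genotype limma called 0 probe sets, 8 with trended and robust moderation, and 0 to 62 with 1 array left out. No label says that the replicate numbers pair the arrays; across probe sets the 2-minus-1 differences of wild type and knockout had a correlation of 0.468. A replicate block on that number gave 274 probe sets by genotype, and by number 2121 probe sets and 8 carriers, the 4 of the plain test with Slc25a10, Slc25a12, Slc25a37 and Slc25a39. Of the 47 carriers other than Slc25a36, limma called 0 by genotype in any setting run. By number the 724 probe sets became 0 to 1178 with 1 array left out, 0 after centring, after quantile normalisation or over all rows, 182 among brighter probe sets, 10 with array weights, 1648 at an adjusted p under 0.1 and 2190 under trended, robust moderation. The 4 carriers called by number became 0 to 7 with 1 array left out, 0 after centring, after quantile normalisation, over all rows, among brighter probe sets or with array weights, 8 at an adjusted p under 0.1 and 10 under trended, robust moderation. Carriers without overlap by genotype were 12 to 21 higher and 8 to 16 lower with 1 array left out, where fewer arrays make overlap rarer; among brighter probe sets 2 were higher, and after centring or quantile normalisation 2 were lower. Restricting to brighter probe sets drops the 19 dimmer members, which hold 4 of the 6 higher carriers of the main count. The cause of the remaining changes was not tested. Of 101 alternative differences of named carriers 88 kept their sign, and Slc25a36 ranged from +2.02 to +3.07. The 88 overstate how steady the signs were, since many of them only repeat the main value. Array weights and the replicate block left each difference as it was, as did averaging for genes with 1 probe set. All 13 changes of sign came with 1 array left out.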

Other observations

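Some carriers that did not pass the test by number are given with their values, picked after these were seen. The aspartate-glutamate carrier Slc25a12 read 8.75 and 9.47 on the arrays numbered 1 (wild type, then knockout) and 7.92 and 7.37 on those numbered 2, a difference of -1.47 ± 0.37 (limma adjusted p = 0.0627). Of the 6 carboxylate carriers 4 read lower and 2 higher on the arrays numbered 2: the dicarboxylate carrier Slc25a10 differed by -1.62 ± 0.39 (limma adjusted p = 0.0546) and the oxoglutarate carrier Slc25a11 by -0.96 ± 0.32, while Slc25a34 differed by +0.37 ± 0.33 and Slc25a35 by +0.67 ± 0.32. The glutamate carrier Slc25a18 read 4.81 and 5.15 against 5.84 and 6.11, a difference of +1.00 ± 0.32 (limma adjusted p = 0.129).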
